A study of Saccharomyces cerevisiae with 8 samples.

Results

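The genes described here are 10 cytosolic translation factor genes, *TEF1*, *TEF2*, *EFB1*, *TEF4*, *EFT1*, *EFT2*, *YEF3*, *HEF3*, *TIF1* and *TIF2*, of the 5774 genes in the deposited table. They were chosen by name, with earlier results of these data known, and all 10 passed the filter on low values. The samples were *pbp1Δ* and WT haploid *Saccharomyces cerevisiae* cells of the CEN.PK background. The deletion strain carried *pbp1Δ::Hyg* in place of the gene for Pbp1, the yeast ortholog of human ataxin-2, and WT was MATa. Poly-A RNA of each genotype was sequenced 3 h after a switch to YPL, a lactate medium that demands respiration, and in log phase in YPD, a glucose medium. This gave 4 groups of 2 libraries that the labels call biological replicates: *pbp1Δ* in YPL, *pbp1Δ* in YPD, WT in YPL and WT in YPD. All cells of the YPL groups had first been grown in YPD.

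During elongation, eEF1A brings each aminoacyl-tRNA to the ribosome as a complex with GTP, and eEF1B exchanges the GDP that remains on it afterwards. eEF2 then moves the tRNAs and the mRNA along, and eEF3, an ATPase of fungi, helps the deacylated tRNA to leave. Before that, eIF4A, an RNA helicase, prepares the 5′ end of the mRNA for the small ribosomal subunit. *TEF1* and *TEF2* both encode eEF1A, *EFB1* and *TEF4* encode the α and γ subunits of eEF1B, *EFT1* and *EFT2* both encode eEF2, *YEF3* and *HEF3* encode forms of eEF3, and *TIF1* and *TIF2* both encode eIF4A. In glucose most of these transcripts are among the most abundant of the yeast cell, and they belong to the growth-related genes that cells lower when glucose is withdrawn.

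A count of the duplicate genes rests on few bases. *TEF1* and *TEF2* differed at 2 of 1377 bases of the coding sequence, and their longest identical run was 761 bases. *EFT1* and *EFT2* differed at 4 of 2529 bases, with an identical run of 1262 bases. *TIF1* and *TIF2* differed at 6 of 1188 bases, with an identical run of 644 bases. *YEF3* and *HEF3* were 74.7% identical over 3141 aligned positions, and their longest identical run was 41 bases. The following stretches of the R64 assembly show a position at which each pair can be told apart, and for *YEF3* and *HEF3* the surroundings of the longest identical run. Capitals mark the bases that differ within the pair, and all are read 5′ to 3′ along the gene.
TEF1 (chrXVI:701335-701375, plus strand): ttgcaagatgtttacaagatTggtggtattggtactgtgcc
TEF2 (chrII:478412-478452, plus strand): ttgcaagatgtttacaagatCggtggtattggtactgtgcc
EFT1 (chrXV:575524-575564, plus strand): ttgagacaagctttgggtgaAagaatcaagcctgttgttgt
EFT2 (chrIV:1243656-1243696, plus strand): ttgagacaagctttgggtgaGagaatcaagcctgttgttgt
TIF1 (chrXI:555192-555232, plus strand): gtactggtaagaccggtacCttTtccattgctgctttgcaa
TIF2 (chrX:154446-154486, minus strand): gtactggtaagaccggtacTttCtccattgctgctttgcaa
YEF3 (chrXII:639230-639290, plus strand): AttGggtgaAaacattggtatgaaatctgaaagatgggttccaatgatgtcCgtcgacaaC
HEF3 (chrXIV:608769-608829, plus strand): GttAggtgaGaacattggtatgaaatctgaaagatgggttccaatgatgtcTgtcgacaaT

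The reads were paired-end, and the counting kept those that mapped to 1 place. A pair that lies wholly in an identical run was thus counted for neither copy. A read in such a run whose mate reaches a unique stretch could be counted. Of the windows of 100 bases inside the coding exons, 13.5% were at a single place in the genome for *TEF1* and for *TEF2*, 16.5% for *EFT1* and *EFT2*, and 25.9% for *TIF1* and *TIF2*. For *YEF3*, *HEF3*, *EFB1* and *TEF4* the share was 100%. With windows of 150 bases the shares were 18.1%, 25.2% and 36.8% for the eEF1A, eEF2 and eIF4A genes. The length of the reads is not given in the sources used here, so these shares describe the sequences. No count or fold change was corrected by them, except that 1 ordering below counts per window of 100 bases and is compared with windows of 300 bases. The counts of these 6 genes therefore leave out reads of their transcripts, and their levels are lower bounds beside those of the other 4.

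**Figure D1:**
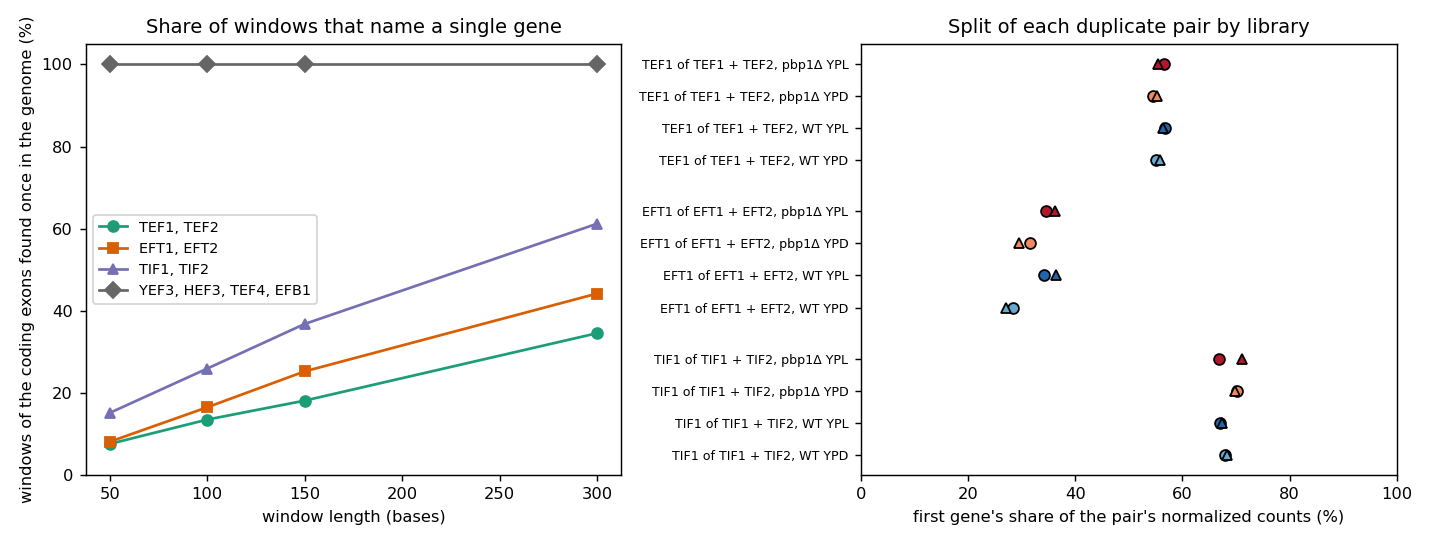
Left, the percent of windows inside the coding exons that occur at a single place in the genome (y axis) against the window length in bases (x axis), for each duplicate pair and for the genes without a near-identical copy. Right, the percent of a pair's normalized counts that came from its first gene (x axis) in each library (rows, circle replicate 1, triangle replicate 2). The share of *EFT1* lay between 34.1% and 36.3% in the YPL libraries and between 27.0% and 31.5% in the YPD libraries. That of *TEF1* lay between 54.4% and 56.7% and was slightly higher in YPL within each genotype.

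The values are normalized counts, the reads of a gene divided by 1 factor per library. They are relative to the other transcripts of the library, so that a lower share of a transcript and a change in the total RNA per cell cannot be told apart. The libraries held 33651287 to 39476235 reads, and the 10 genes with the most reads took 5.84% to 9.43% of them. In *pbp1Δ* cells *PBP1* had at most 1 read, against 10926 to 12463 reads in WT cells. The *pbp1Δ* libraries also had 0 reads of *HMRA1*, against 1121 to 1693 in WT, and 45059 to 159687 reads of 4 α-specific genes, against 1468 to 2252. The strains thus differed in mating type genes too, and the part of that difference in any genotype comparison was not tested. The log2 difference between replicates had an SD of 0.31 and 0.53 over all genes in *pbp1Δ* cells in YPL and YPD, and of 0.22 and 0.58 in WT cells in YPL and YPD.

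The translation factors were abundant, with the exception of *HEF3*. By mean normalized count over the 8 libraries, *YEF3* ranked 6, *TEF1* 17, *EFB1* 25, *TEF2* 26, *TEF4* 91, *EFT2* 133, *TIF1* 344, *EFT1* 421, *TIF2* 839 and *HEF3* 4602 of 5774 genes. Together the 10 genes held 1.55% and 1.32% of all normalized counts in the *pbp1Δ* libraries in YPL and 2.08% and 1.99% in YPD. In WT cells they held 1.34% and 1.22% in YPL and 2.22% and 2.13% in YPD. The share was thus lower in each YPL library than in any YPD library.

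Counts per kb of coding sequence were used to set the genes in order. In *pbp1Δ* cells in YPL, *EFB1* was first with 91169.8 ± 5052 normalized counts per kb (SD, n = 2), and no other gene overlapped it. *TEF1* followed with 70299.8 ± 13930.3, *YEF3* with 59254 ± 7205 and *TEF2* with 55268 ± 9182, where *YEF3* overlapped both eEF1A genes. *TEF4* had 21403 ± 4161, *TIF1* 11216 ± 133, *EFT2* 10254 ± 1729, *EFT1* 5597 ± 671, *TIF2* 5069 ± 657 and *HEF3* 602 ± 12.02 per kb. Among these, *TIF1* and *EFT2* overlapped, and so did *EFT1* and *TIF2*. In *pbp1Δ* cells in YPD and in WT cells in YPL, *YEF3* came before *TEF1*, with overlap, and *TIF2* before *EFT1*, without overlap. WT cells in YPD had the same order, and no 2 neighbours overlapped. There *EFB1* had 182271 ± 7073 normalized counts per kb (SD, n = 2), *YEF3* 102898 ± 5004, *TEF1* 89899 ± 10849, *TEF2* 72427 ± 10133 and *TEF4* 54294 ± 1152. *TIF1* had 23863 ± 545, *EFT2* 22343 ± 825, *TIF2* 11134 ± 389, *EFT1* 8555 ± 707 and *HEF3* 221 ± 37.2. The order depended on the duplicates. Counted per 1000 windows of 100 bases found at a single place in the genome, *TEF1* and *TEF2* came before *EFB1* in all 4 groups. That order did not hold at every window length. At 300 bases, *TEF2* had 372 such windows and *EFB1* 242. In YPD *EFB1* also had the higher mean normalized count, 107096 against 96395 in *pbp1Δ* and 113191 against 99731 in WT cells. *EFB1* thus came before *TEF2* in YPD at 300 bases. In YPL *TEF2* had the higher mean count, and the order at 300 bases was not computed.

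**Figure D2:**
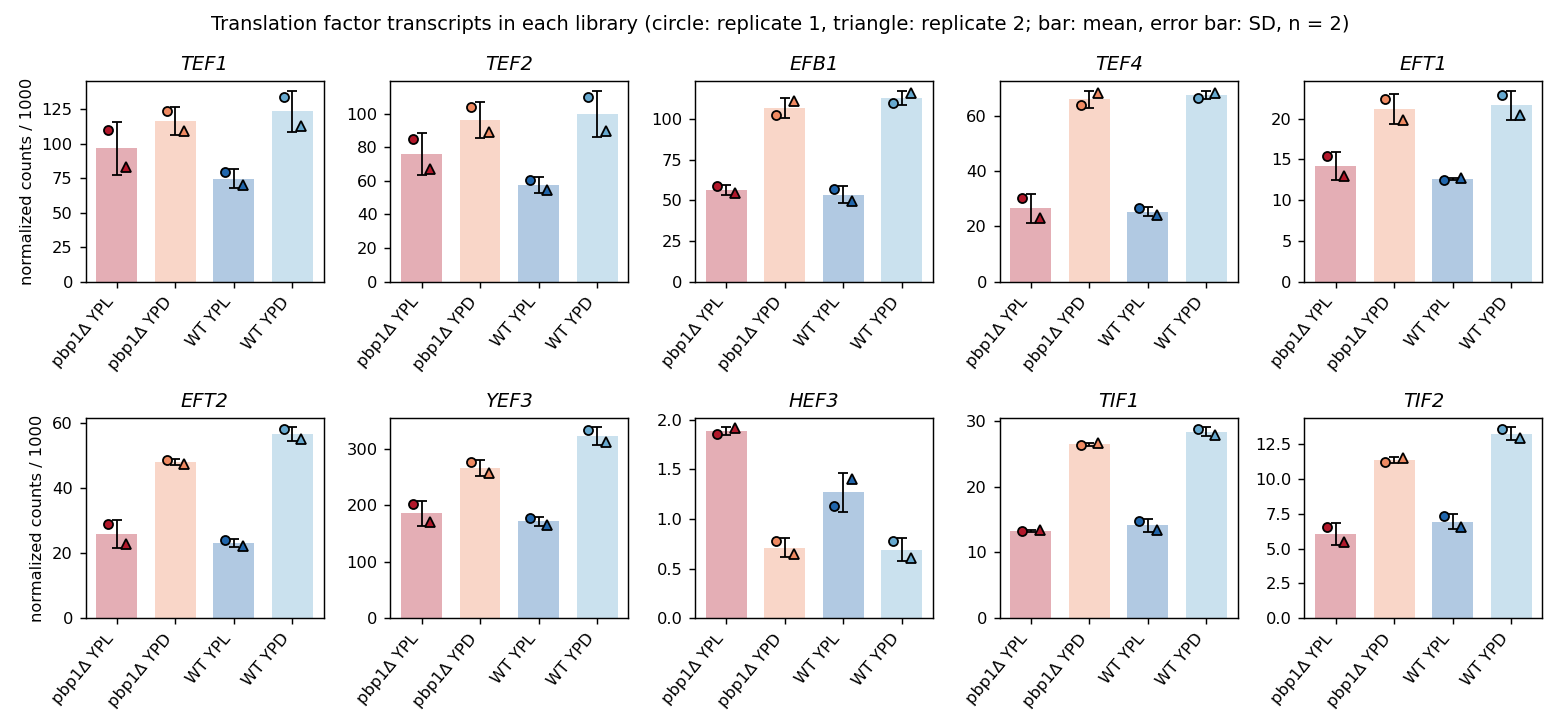
Normalized counts divided by 1000 (y axis, linear, from 0) of the 10 genes in each group (x axis), with both libraries as points (circle replicate 1, triangle replicate 2), the mean as a bar and the SD as an error bar (n = 2). In WT cells the YPL libraries of all genes but *HEF3* lie below the YPD libraries, and the *HEF3* libraries lie above them.

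The switch to YPL was examined first. In *pbp1Δ* cells 6 of the 10 genes were called lower in YPL and *HEF3* was called higher. In WT cells all 10 were called, 9 of them lower and *HEF3* higher. A gene was called where the Benjamini-Hochberg adjusted p of limma was under 0.05 and the absolute log2 fold change was over 0.58. Of all 5759 genes tested, 15.1% were called lower and 18.1% higher in *pbp1Δ* cells, and 15.7% lower and 19.3% higher in WT cells. The median log2 fold change of the 10 genes was -0.74 in *pbp1Δ* cells, beside 0.011 for all genes tested, and -0.92 in WT cells, beside -0.001. Lower values were shared by other abundant transcripts. The 100 other genes with the highest mean normalized count had medians of -0.63 in *pbp1Δ* and -1.03 in WT cells. Of these 100, 50 were called lower in *pbp1Δ* and 61 in WT cells, and 25 and 21 were called higher.

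The eEF1A genes were not called in *pbp1Δ* cells and were called lower in WT cells. *TEF1* (YPR080W, chrXVI:700594-701970, a single coding exon) had 110367 and 83239 normalized counts in *pbp1Δ* cells in YPL and 124101 and 109346 in YPD. In WT cells it had 79604 and 70125 in YPL and 134354 and 113227 in YPD. The highest *pbp1Δ* library in YPL lay above the lowest in YPD, whereas the WT media did not overlap. The log2 fold change of *TEF1* in YPL against YPD was -0.28 (standard error, SE, 0.17) in *pbp1Δ* cells, which was not called (adjusted p = 0.23 from limma). It was -0.72 (SE 0.17, limma adjusted p = 0.0153) in WT cells. *TEF2* (YBR118W, chrII:477671-479047, a single coding exon) had 85044 and 67164 normalized counts in *pbp1Δ* cells in YPL and 103921 and 88868 in YPD. In WT cells *TEF2* had 60702 and 54304 in YPL and 109598 and 89865 in YPD. The YPL libraries of *TEF2* were below the YPD libraries in both genotypes. Its log2 fold change was -0.35 (standard error 0.17) in *pbp1Δ* cells, not called (adjusted p = 0.139 from limma), and -0.79 (SE 0.17, limma adjusted p = 0.00961) in WT cells. That *TEF1* and *TEF2* were not called in *pbp1Δ* cells but were in WT cells does not show a difference between the genotypes, which is tested below as the interaction. The WT calls rested on few libraries. Without WT replicate 2 in YPL the fold changes were -0.63 for *TEF1* (adjusted p = 0.0845 from limma) and -0.71 for *TEF2* (adjusted p = 0.0601 from limma), and without WT replicate 1 in YPD that of *TEF1* was -0.60 (adjusted p = 0.0708 from limma). Taken as 1 sum, *TEF1* and *TEF2* had a log2 fold change of -0.31 in *pbp1Δ* cells, not called (adjusted p = 0.195 from limma), and of -0.75 in WT cells, called lower (adjusted p = 0.014 from limma).

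The eEF1B genes were lower in YPL in both genotypes. *EFB1* (YAL003W, chrI:142174-143160, 2 coding exons), the nucleotide exchange subunit, had 58835 and 54398 normalized counts in *pbp1Δ* cells in YPL and 102787 and 111405 in YPD. In WT cells *EFB1* had 57105 and 49906 in YPL and 110085 and 116296 in YPD. The YPL libraries lay far below the YPD libraries, with log2 fold changes of -0.92 (SE 0.11, limma adjusted p = 0.00105) in *pbp1Δ* and -1.08 (SE 0.11, limma adjusted p = 0.000482) in WT cells. *TEF4* (YKL081W, chrXI:282891-284455, 2 coding exons) had 30165 and 22873 normalized counts in *pbp1Δ* cells in YPL and 63736 and 68103 in YPD. In WT cells *TEF4* had 26436 and 24204 in YPL and 66260.3 and 68279 in YPD. *TEF4* had the lowest log2 fold change of the 10 genes in both genotypes, -1.33 (SE 0.14, limma adjusted p = 0.000615) in *pbp1Δ* and -1.41 (SE 0.14, limma adjusted p = 0.00044) in WT cells. This left 39.9% and 37.6% of the YPD level in *pbp1Δ* and WT cells. The introns of *EFB1* and *TEF4* hold the snoRNA genes *SNR18* and *SNR38* on the same strand, and the other 8 genes overlap no annotated gene. *CAM1* (YPL048W), which encodes another γ subunit and is 69.6% identical to *TEF4*, did not follow it. Its log2 fold change was 0.56 (adjusted p = 0.00428 from limma) in *pbp1Δ* and 0.33 (adjusted p = 0.031 from limma) in WT cells, under the fold threshold in both. Without *pbp1Δ* replicate 2 in YPL or replicate 1 in YPD the *pbp1Δ* value was 0.60 or 0.58 and was called higher.

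The eEF2 genes were called lower in both genotypes. *EFT1* (YOR133W, chrXV:575098-577626, a single coding exon) had 15355 and 12954 normalized counts in *pbp1Δ* cells in YPL and 22432 and 19822 in YPD. In WT cells *EFT1* had 12475 and 12698 in YPL and 22900.3 and 20372 in YPD. *EFT2* (YDR385W, chrIV:1243230-1245758, a single coding exon) had 29025 and 22841 in *pbp1Δ* cells in YPL and 48705 and 47277 in YPD. In each genotype the media did not overlap for either gene. In WT cells *EFT2* had 24092 and 22238 in YPL and 57981 and 55030.1 in YPD. The log2 fold change of *EFT1* was -0.58 (SE 0.12, limma adjusted p = 0.00913) in *pbp1Δ* and -0.78 (SE 0.12, limma adjusted p = 0.00258) in WT cells. The *pbp1Δ* value lay at the fold threshold, and the call was lost without replicate 2 in YPL (-0.46) or replicate 1 in YPD (-0.49). For *EFT2* the log2 fold change was -0.90 (SE 0.13, limma adjusted p = 0.00203) in *pbp1Δ* and -1.29 (SE 0.13, limma adjusted p = 0.000421) in WT cells. *EFT1* held 34.6% and 36.2% of the eEF2 counts in *pbp1Δ* cells in YPL and 31.5% and 29.5% in YPD. In WT cells it held 34.1% and 36.3% in YPL and 28.3% and 27.0% in YPD. The share of *EFT1* was thus higher in each YPL library than in any YPD library, a difference that was not tested. No such separation was seen for *TIF1*, which held 66.8% to 71.1% of the eIF4A counts. The share of *TEF1* in the eEF1A counts was slightly higher in YPL within each genotype. It was 56.5% and 55.3% against 54.4% and 55.2% in *pbp1Δ* cells, and 56.7% and 56.4% against 55.1% and 55.8% in WT cells.

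The eEF3 genes went in opposite directions. *YEF3* (YLR249W, chrXII:636780-639914, a single coding exon), the main gene for eEF3, had 201735 and 169791 normalized counts in *pbp1Δ* cells in YPL and 276235 and 256699.7 in YPD. In WT cells *YEF3* had 177632 and 165536 in YPL and 333678 and 311495 in YPD. The YPL libraries were lower throughout. In *pbp1Δ* cells the log2 fold change was -0.52 (SE 0.13, limma adjusted p = 0.0186), short of the fold threshold and so not called, but called at -0.65 without replicate 1 in YPL and at -0.66 with the library medians set equal. In WT cells it was -0.91 (standard error 0.13, limma adjusted p = 0.00196). *HEF3* (YNL014W, chrXIV:606319-609453, a single coding exon), a paralog of *YEF3* known to be little expressed in growing cells, had 1859 and 1913 normalized counts in *pbp1Δ* cells in YPL and 777 and 646 in YPD. In WT cells *HEF3* had 1132 and 1408 in YPL and 774 and 609.5 in YPD. All YPL libraries were above all YPD libraries, on 627 to 2062 reads a library. The log2 fold change was 1.41 (SE 0.18, limma adjusted p = 0.00124) in *pbp1Δ* and 0.88 (SE 0.18, limma adjusted p = 0.00799) in WT cells, or 2.66-fold and 1.84-fold. Without WT replicate 2 in YPL the WT value was 0.72 and was not called (adjusted p = 0.0635 from limma). *HEF3* made up 0.913% and 1.11% of the eEF3 counts in *pbp1Δ* cells in YPL and 0.281% and 0.251% in YPD. In WT cells it made up 0.633% and 0.843% in YPL and 0.232% and 0.195% in YPD, so that *YEF3* held nearly all of them in every library.

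The eIF4A genes were called lower in both genotypes. *TIF1* (YKR059W, chrXI:554987-556174, a single coding exon) had 13213 and 13436 normalized counts in *pbp1Δ* cells in YPL and 26276 and 26601 in YPD. In WT cells *TIF1* had 14843 and 13458 in YPL and 28807 and 27891 in YPD. Replicates lay close together and far from the other medium. The log2 fold change was -0.99 (SE 0.08, limma adjusted p = 0.000241) in *pbp1Δ* and -1.004 (SE 0.08, limma adjusted p = 0.0002) in WT cells. *TIF2* (YJL138C, chrX:153504-154691, minus strand, a single coding exon) had 6575 and 5470.1 normalized counts in *pbp1Δ* cells in YPL and 11189.8 and 11469.7 in YPD. In WT cells *TIF2* had 7297 and 6532 in YPL and 13553 and 12899.9 in YPD. The YPL libraries were again below the YPD libraries, with log2 fold changes of -0.92 (SE 0.11, limma adjusted p = 0.00116) in *pbp1Δ* and -0.94 (SE 0.11, limma adjusted p = 0.000943) in WT cells.

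Apart from *HEF3*, the libraries of the media did not overlap for 8 of the 9 genes in *pbp1Δ* cells, *TEF1* being the exception, and for all 9 in WT cells. *HEF3* was higher without overlap in both. Such separation was common: of all genes tested, 35.9% were lower and 37.6% higher without overlap in *pbp1Δ* cells, and 38.0% lower and 38.5% higher in WT cells. Setting the library medians equal moved every log2 fold change of YPL against YPD by -0.13 in both genotypes, and the directions of the 10 genes were kept.

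**Figure D3:**
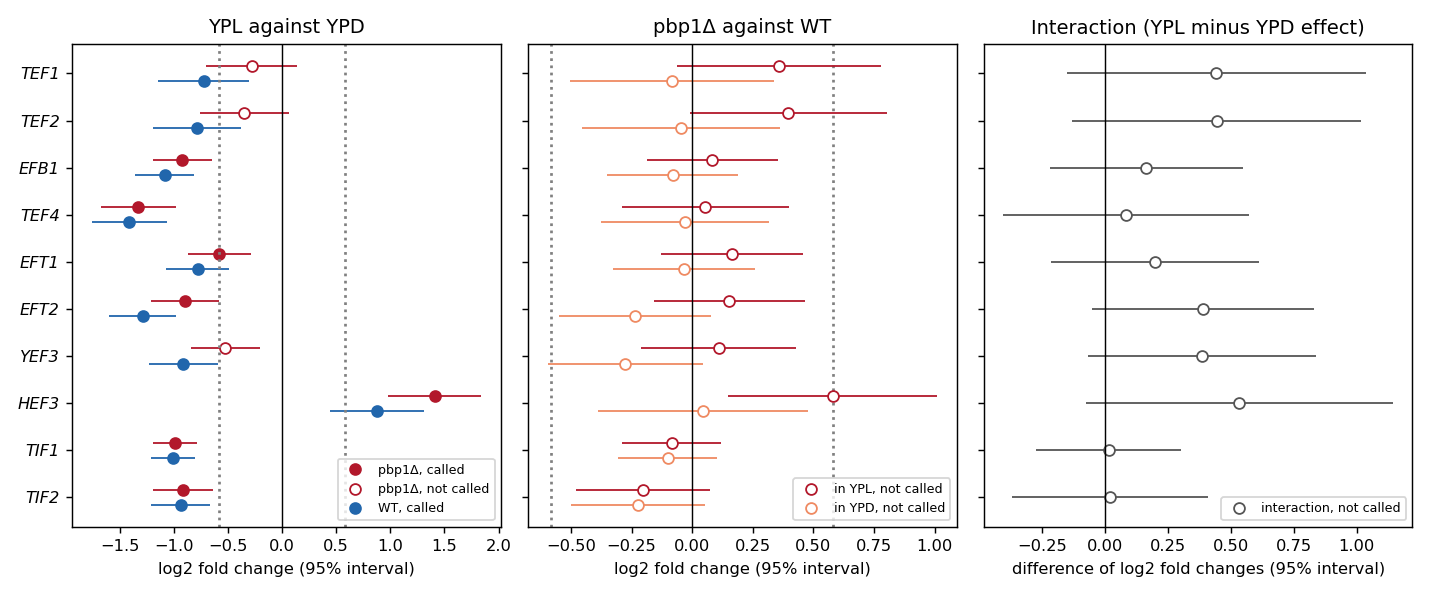
Log2 fold changes of the 10 genes (rows) with 95% intervals from limma (x axis). Left, YPL against YPD in *pbp1Δ* (red) and WT (blue) cells. Middle, *pbp1Δ* against WT in YPL (red) and YPD (orange). Right, the interaction. Filled points were called and open points were not, and dotted lines stand at an absolute log2 fold change of 0.58. All 10 WT changes with the medium are filled, and no point of the genotype comparisons or the interaction is.

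The genotypes were compared next within each medium. In YPL, 0 of the 10 genes were called between *pbp1Δ* and WT cells by limma, beside 4.69% of all genes tested, and 1 had an unadjusted p under 0.05. That gene was *HEF3*, at 0.579 on the log2 scale, just under the fold threshold (standard error 0.18, 95% interval 0.15 to 1.01, adjusted p = 0.154 from limma). *TEF1* and *TEF2* followed with 0.36 (95% interval -0.06 to 0.78, adjusted p = 0.356 from limma) and 0.40 (95% interval -0.01 to 0.80, adjusted p = 0.29 from limma). The other 7 genes lay between -0.20 (*TIF2*) and 0.16 (*EFT1*). The *pbp1Δ* libraries lay above the WT libraries without overlap for *TEF1*, *TEF2*, *EFT1* and *HEF3*, beside 27.5% of all genes tested, and below them for *TIF1*, beside 30.1%. The median of the 10 genes was 0.13, beside -0.006 for all genes tested and 0.098 for the 100 abundant other genes. The small values took either sign when 1 library was left out. Without *pbp1Δ* replicate 1 in YPL, *TEF4*, *EFT2* and *YEF3* had -0.15, -0.02 and -0.01, and without WT replicate 2 in YPL, *TEF4* and *EFB1* had -0.01 and -0.01.

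In YPD, 0 of the 10 genes were called, beside 0.972% of all genes tested, and 0 had an unadjusted p under 0.05 in limma. The log2 fold changes ran from -0.28 for *YEF3* (standard error 0.13, 95% interval -0.60 to 0.04, adjusted p = 0.738 from limma) to 0.05 for *HEF3*. The *pbp1Δ* libraries lay below the WT libraries without overlap for *EFT2*, *YEF3*, *TIF1* and *TIF2*, beside 17.8% of all genes tested, and above them for none, beside 13.7%. *EFT2* and *TIF2* had log2 fold changes of -0.24 and -0.22. The values of the other genes were small, and with the library medians set equal, those of *TEF2*, *TEF4* and *EFT1* were positive, at 0.024, 0.041 and 0.036. Without *pbp1Δ* replicate 2 or WT replicate 1 in YPD, *TEF1*, *TEF2* and *EFT1* were between 0.009 and 0.097. Without *pbp1Δ* replicate 1 *TEF4* had 0.02 and *HEF3* -0.09, and without WT replicate 2 *HEF3* had -0.13.

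Whether the response to YPL differed between the genotypes was tested as the interaction, the log2 fold change of *pbp1Δ* against WT in YPL minus that in YPD. All 10 values were above 0, and 0 were called, beside 0.0695% of all genes tested, with 0 at an unadjusted p under 0.05 in limma. The values were 0.53 for *HEF3* (SE 0.25, limma adjusted p = 0.784), 0.44 for *TEF1* and 0.44 for *TEF2* (standard errors 0.25 and 0.24), and 0.39 for *EFT2* and 0.39 for *YEF3* (standard errors 0.18 and 0.19). *EFT1* had 0.20, *EFB1* 0.16, *TEF4* 0.08, *TIF2* 0.02 and *TIF1* 0.02. The 95% intervals of all 10 held 0, that of *TEF1* running from -0.15 to 1.04 and that of *TIF1* from -0.27 to 0.30. The median was 0.29, beside 0.009 for all genes tested. For the 100 abundant other genes it was 0.20, with 19 values below 0 and 0 called, so positive values were not particular to the 10 genes. With the replicate number as a block within each medium, 360 of all genes were called for the interaction, against 4 without the block, and again 0 of the 10 genes, whose adjusted p from limma then ran from 0.0838 for *HEF3* to 0.954 for *TIF1*. The lowest values turned negative when 1 library was left out. Without *pbp1Δ* replicate 1 in YPL, *TEF4* had -0.12 and *TIF2* -0.11. Without WT replicate 2 in YPL or WT replicate 1 in YPD, *TIF1* had -0.06 or -0.01 and *TIF2* -0.06 or -0.02.

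The rest of the translation machinery was described with lists of genes. Of 25 other initiation factors, 11 were called lower in YPL in *pbp1Δ* cells (median log2 fold change -0.52) and 15 in WT cells (median -0.68), and 0 were called higher in either. Of all genes tested, 15.1% were called lower in YPL in *pbp1Δ* cells and 15.7% in WT cells, which is the background for this list and the next ones. *TIF11*, which encodes eIF1A, had the lowest value among them, -1.55 in *pbp1Δ* and -1.21 in WT cells. *CDC33*, which encodes the cap-binding protein eIF4E, had -0.83 and -0.78, and *TIF4631*, which encodes eIF4G, had -0.70 and -0.83, in *pbp1Δ* and WT cells. *DED1*, an RNA helicase of initiation, had -0.41 (adjusted p = 0.148 from limma) in *pbp1Δ* and -0.52 (adjusted p = 0.0796 from limma) in WT cells and was not called. Of 8 other elongation, termination and recycling factors, 4 were called lower in *pbp1Δ* cells (median -0.62) and 7 in WT cells (median -0.77). The release factor gene *SUP45* had -1.03 and -0.90 in *pbp1Δ* and WT cells, and *RLI1*, for ribosome recycling, had -0.78 and -1.01. *ANB1*, a gene for eIF5A that is known for its expression without oxygen, had the lowest value in both genotypes, -1.93 in *pbp1Δ* and -2.66 in WT cells, but at 160.2 normalized counts or fewer in every library. Its call in *pbp1Δ* cells was lost without replicate 1 in YPL (-2.28), replicate 2 in YPL (-1.57) or replicate 1 in YPD (-1.50).

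Of 14 genes for enzymes that modify elongation factors, 6 were called lower in *pbp1Δ* cells (median -0.40) and 7 in WT cells (median -0.60), and 0 were called higher. *EFM6*, a methyltransferase that acts on eEF1A, had -1.76 in *pbp1Δ* and -1.93 in WT cells. *EFM2*, which methylates eEF2 and eEF3, had -1.21 and -1.18, and *LIA1*, the hydroxylase of eIF5A, had -1.15 and -1.20. Of 8 translation repressors and kinases of initiation factors, 3 were called lower in *pbp1Δ* cells (median -0.16) and 4 in WT cells (median -0.38), and 0 were called higher. The list was mixed, with 4 values below 0 in *pbp1Δ* and 5 in WT cells. *STM1*, whose product sits on ribosomes that do not translate, had -1.21 and -1.34, and *CAF20*, a repressor that binds eIF4E, had -1.15 and -0.96. *EAP1*, another repressor that binds eIF4E, had values above 0, at 0.52 (adjusted p = 0.00392 from limma) in *pbp1Δ* and 0.35 (adjusted p = 0.0194 from limma) in WT cells, and was not called, being short of the fold threshold. The cytosolic aminoacyl-tRNA synthetases, which supply eEF1A with its substrates, had 10 of 19 genes called lower in *pbp1Δ* cells (median -0.65) and 11 in WT cells (median -0.71). The 137 cytosolic ribosomal protein genes had 126 called lower in *pbp1Δ* cells (median -1.57) and 129 in WT cells (median -1.59), medians below the value of any of the 10 genes, of which *TEF4* came nearest. In none of these 6 lists was a gene called between the genotypes in either medium, beside 4.69% of all genes tested in YPL and 0.972% in YPD.

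The factors of mitochondrial translation had values of the other sign. All 8 listed genes, among them *TUF1* and *MEF1* for the mitochondrial counterparts of eEF1A and eEF2, were above 0 in YPL against YPD. In *pbp1Δ* cells 4 of them were called higher (median 0.81), and in WT cells all 8 were (median 1.34), beside 18.1% and 19.3% of all genes tested in *pbp1Δ* and WT cells. *TUF1* had 1.13 in *pbp1Δ* and 1.33 in WT cells, beside -0.28 and -0.72 for *TEF1*. *MEF1* had 1.27 and 1.75, beside -0.90 and -1.29 for *EFT2*. In *pbp1Δ* against WT cells in YPL, 5 of the 8 were called lower (median -1.14), *MEF1* at -1.60, beside 4.17% of all genes tested and 0 of the 10 cytosolic factors. In YPD 1 of the 8 was called lower (median -0.45), *MEF1* at -1.12 (adjusted p = 0.0134 from limma), beside 0.868% of all genes tested and 0 of the 10.

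**Figure D4:**
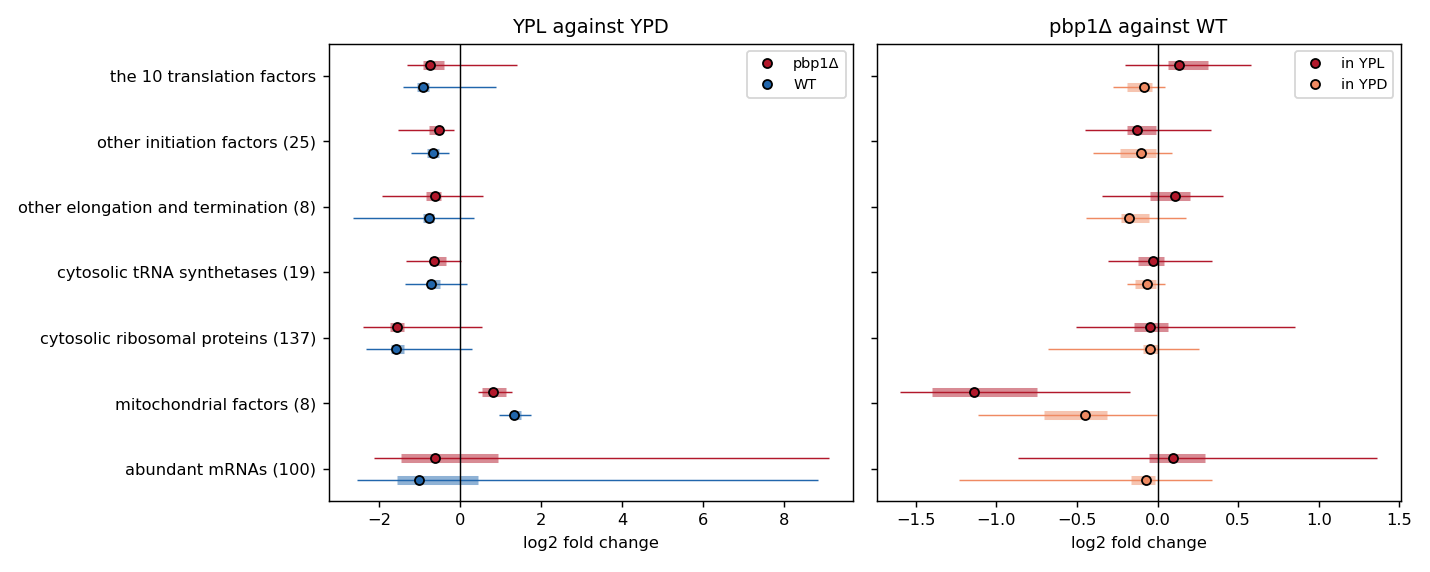
Log2 fold changes (x axis) of the 10 translation factors and of 6 other gene lists (rows). Points are medians, thick bars the middle 50 percent of the genes and thin lines the full range. Left, YPL against YPD in *pbp1Δ* (red) and WT (blue) cells. Right, *pbp1Δ* against WT in YPL (red) and YPD (orange). The mitochondrial factors lie right of 0 with the medium (medians 0.81 and 1.34) and left of it in *pbp1Δ* cells in YPL (median -1.14).

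Over the 8 libraries the 9 genes without *HEF3* varied together. Pearson's r of their 36 pairs ran from 0.786 to 0.995, with a median of 0.955, and that of *HEF3* with each of them from -0.946 to -0.586. These values describe 8 libraries in 4 groups and carry no test, since the libraries share the contrast of media. The genes whose pattern was most like the mean of the 9 were *SSB1* (r = 0.999) and *SSB2* (r = 0.996), Hsp70 chaperones that bind nascent chains on the ribosome, followed by *RPL4A*, *YBR238C* and *RPL8B* (r = 0.994 each). *SSB1* had 27214 and 20881 normalized counts in *pbp1Δ* cells in YPL and 52652 and 49641 in YPD. In WT cells it had 24038 and 20361 in YPL and 58660 and 55584 in YPD. Those most like *HEF3* were *HXT11* (r = 0.995), a hexose transporter gene, *APA2* (r = 0.995), *PRC1* (r = 0.992), which encodes vacuolar carboxypeptidase Y, *GVP36* (r = 0.992) and *RUP1* (r = 0.991). *SSB1*, *SSB2*, *RPL4A*, *RPL8B* and *HXT11* have close copies elsewhere in the genome, so that their counts may be incomplete too.

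Matches to binding motifs were looked for around the genes in the R64 assembly. A core of the Rap1 motif, CACCC with any 2 bases and then ACA, was sought on both strands from 500 bases before to 50 bases after the start codon, since Rap1 is known to bind promoters of ribosomal protein and elongation factor genes. It was present for 2 of the 10 genes, beside 2.27% of 5768 genes and 21.2% of the 137 ribosomal protein genes. In a shorter window that began 250 bases before the start codon it was present for 0 of the 10 genes, beside 1.04% of the 5768 genes and 4.38% of the ribosomal protein genes. Most ribosomal protein genes thus had no match to this exact core either. A gene without a match, such as *TEF1*, may still be bound by Rap1. Both matches are shown with the motif in capitals, the *TEF2* match 436 bases and the *TEF4* match 389 bases before the start codon. The *TEF4* motif lies on the strand opposite to the gene.
TEF2 (chrII:477225-477254, plus strand): attcatgttgCACCCACACAtttatacacc
TEF4 (chrXI:282492-282521, plus strand): ttcaatttggTGTCTGGGTGaaacttttta
TGTANATA, the core that the RNA-binding protein Puf3 recognises, was sought on the gene's strand within 200 bases after the stop codon, because Puf3-target transcripts are the subject of the study. *TIF1* was the gene among the 10 with a match, which began 193 bases after the stop codon, beside 14.5% of 5768 genes. The match of *TIF1* (chrXI:556357-556374, plus strand) reads tttgtcttttTGTATATA. In *pbp1Δ* against WT cells *TIF1* had log2 fold changes of -0.09 in YPL and -0.10 in YPD (adjusted p = 0.688 and 0.954 from limma), and its near copy *TIF2*, with no match in that window, had -0.20 and -0.22.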

How the data were processed

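The authors trimmed paired-end reads with Trim Galore, aligned them to the S288C genome (R64) with STAR 2.7.3a, counted uniquely mapped reads per gene with featureCounts (Subread 1.6.3) and normalized them in DESeq2. The authors deposited the normalized counts, a signal on a linear scale for which each library's reads were divided by 1 factor. Every value was a whole multiple of 1 number per library (tolerance 0.01), taken as the value of 1 read, 0.892 to 1.16 normalized counts. Reads given here are inferred as multiples of that number. Read length and the strand setting of the counting are not given in the sources used here.

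Genes with a mean of at least 10 (5759 of 5774) were fitted as log2(normalized count + 1) in limma 3.58.1 (R 4.3.3), with all 4 groups in 1 model and a trend in the mean. Fold changes are on that scale. The p-values were adjusted by Benjamini-Hochberg, and a call needed an adjusted p under 0.05 together with a log2 fold change beyond 0.58 in either direction (for the interaction, the adjusted p only). A permutation of 2 against 2 libraries cannot go below a two-sided p of 0.333, so the tests rest on the model, and they measure the spread between these libraries. Sequences were read from the RefSeq copy of R64, to which all 5774 identifiers matched. Python 3.11.15 with pandas 2.3.3, numpy 2.4.6 and matplotlib 3.10.9 served for tables and plots.

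The genes and lists were chosen with earlier results of these data known. All 10 genes were to be named in every comparison, with the called genes of largest change in the lists of translation factors, their modifiers and repressors, and the 5 genes most like them over the libraries. *CDC33*, *TIF4631*, *DED1*, *SUP45*, *RLI1*, *CAF20*, *EAP1*, *TUF1* and *MEF1* were named after their values were seen. Alternatives changed the pseudocount (0.5 and 8), the filter, the scaling, the threshold, the trend, the replicate block and which libraries were fitted, and left out each library in turn.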

Additional observations from a re-analysis of the deposited data

How the results depend on the processing

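With 2 libraries a group, calls near the threshold rested on single libraries. The 19 alternatives gave 1217 values of named genes, of which 1177 kept their direction and their side of the threshold, 10 lost their call, 7 gained one and 23 changed sign. The 10 translation factors gave 0 calls between the genotypes and for the interaction under every alternative run. With the medium, the number called was 6 to 8 in *pbp1Δ* and 7 to 10 in WT cells when each library was left out in turn. At a pseudocount of 8 *EFT1* was no longer called in *pbp1Δ* cells, because its log2 fold change came to just under 0.58. Summing pairs changed no call of the 6 genes with a near-identical copy or of *YEF3*. The sum of *YEF3* and *HEF3* followed *YEF3*, at -0.51 in *pbp1Δ* cells, not called, and -0.90 in WT cells, called lower. It does not show the higher level of *HEF3* in YPL.

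In *pbp1Δ* against WT cells, 270 genes were called in YPL and 56 in YPD, and 4 for the interaction. With the 4 libraries of the medium alone the counts were 457 in YPL and 14 in YPD, and centring gave 29 in YPD. Leaving out each library in turn gave 61 to 277 in YPL and 15 to 19 in YPD. With the replicate number as a block within each medium, 503 genes were called in YPL, 214 in YPD and 360 for the interaction. The cause was not tested. The groups share only the numbers 1 and 2, and what they mark is not stated. The correlation of their deviations was 0.85 between the YPD groups and 0.24 between the YPL groups of the genotypes. The block changed no call among the 10 genes, but it lowered adjusted p-values. For *TEF1* the limma adjusted p fell to 0.0342 in *pbp1Δ* against WT cells in YPL, from 0.356. For YPL against YPD in *pbp1Δ* cells it fell to 0.0358, from 0.23. Only the fold threshold kept these 2 values of *TEF1* from being called. In *pbp1Δ* against WT cells in YPL, *TEF2* (0.40) and *HEF3* (0.579) had larger log2 fold changes than *TEF1* (0.36). These too lay below 0.58, that of *HEF3* only just. With the block, the limma adjusted p of the interaction was 0.094 for *TEF2*, 0.0838 for *HEF3* and 0.119 for *TEF1*.

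Centring turned the YPD genotype values of *TEF2*, *TEF4* and *EFT1* to 0.024, 0.041 and 0.036. With each library left out in turn, those of *TEF1* ran from -0.21 to 0.04, *TEF2* from -0.19 to 0.10, *TEF4* from -0.078 to 0.018, *EFT1* from -0.12 to 0.055 and *HEF3* from -0.13 to 0.22. In YPL *TEF4* ran from -0.15 to 0.25, *EFB1* from -0.014 to 0.18, *EFT2* from -0.019 to 0.33 and *YEF3* from -0.014 to 0.23. For the interaction *TEF4* ran from -0.12 to 0.28, *TIF1* from -0.055 to 0.086 and *TIF2* from -0.11 to 0.15. The fits with edgeR and DESeq2 were not run: the table used holds normalized counts, and the reads inferred from them could not pass the check that count tests required. By that inference each of the 10 genes had at least 627 reads a library.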
